A study of Mus musculus with 14 samples.

Results

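The proteasome subunit genes measured here are the 36 genes Psma1 to Psma7, Psmb1 to Psmb7, Psmc1 to Psmc6, Psmd1 to Psmd14, Psme3 and Psme4, out of 12393 mouse genes with a probeset of their own on the array. They were picked by gene symbol, with earlier results of these data known, and each was found. The array reports a gene through probesets, groups of short probes, and these genes had 69 of them. A gene was represented by its brightest probeset, judged by the mean over all arrays, and 19 of the genes had more than 1 to choose from.

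RNA of B16-F10 cells, a pigmented melanoma line of C57BL/6J mice, was measured on 14 Affymetrix arrays, each labelled as a biological replicate. The 5 control arrays came from untreated cells kept at 37 °C in RPMI medium with fetal bovine serum. The 3 Lipofectamine arrays came from cells given Lipofectamine 2000, a cationic lipid used to carry DNA into cells, without plasmid for 3 h in Opti-MEM medium, and returned for 30 min to RPMI with serum. The 3 heat shock arrays came from cells held for 1 h at 42.5 °C and then for 30 min at 37 °C. The 3 benzyl alcohol arrays came from cells given 40 mM benzyl alcohol, which loosens the packing of membrane lipids, for 1 h at 37 °C, with a recovery of 3 h in one label and 30 min in another. No change of medium is described for the control cells, so the lipid and the change of medium cannot be told apart. Exposure and recovery also differ between the treatments. Nothing in the sources used here says whether replicates were separate cultures, and p-values then measure only the spread between these arrays.

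The proteasome is the protease that degrades proteins marked with ubiquitin. Its 20S core is a barrel in which outer rings of alpha subunits control entry and inner rings of beta subunits carry the cutting sites. The 19S cap sits on the barrel: its base holds a ring of ATPases that unfold the substrate and pull it in, and its lid removes the ubiquitin chain. When proteasomes are inhibited, cells make more of all subunits together, through the membrane-bound factor NRF1 (gene Nfe2l1), while heat shock acts mainly through the factor HSF1 on chaperone genes.

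Upstream sequence is shown for 4 genes whose signals differed between groups and that the results below return to: Psma7 of the alpha ring, Psmc6 and Psmd1 of the base, and Psme3, an activator outside the cap. Each window runs 5′ to 3′ on the gene's strand, from 250 bases before the RefSeq transcript start to 50 after it (build GRCm38.p6). Capitals mark matches, on either strand, to the NRF1 and NRF2 element TGACNNNGC, to the heat shock element parts GAANNTTC and TTCNNGAA, and to the CCAAT box.
Psma7, chr2:180042415-180042714, strand -: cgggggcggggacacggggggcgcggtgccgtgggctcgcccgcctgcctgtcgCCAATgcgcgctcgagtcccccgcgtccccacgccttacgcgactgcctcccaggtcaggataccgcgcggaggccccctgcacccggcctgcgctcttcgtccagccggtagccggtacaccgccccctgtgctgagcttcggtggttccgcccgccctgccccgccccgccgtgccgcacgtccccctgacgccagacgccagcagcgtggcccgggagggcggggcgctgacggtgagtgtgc
Psmc6, chr14:45329574-45329873, strand +: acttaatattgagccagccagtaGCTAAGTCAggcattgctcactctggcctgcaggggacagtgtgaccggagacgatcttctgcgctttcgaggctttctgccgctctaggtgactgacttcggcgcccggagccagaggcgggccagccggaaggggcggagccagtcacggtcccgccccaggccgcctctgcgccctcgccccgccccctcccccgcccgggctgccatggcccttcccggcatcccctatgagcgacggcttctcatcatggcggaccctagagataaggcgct
Psmd1, chr1:86064369-86064668, strand +: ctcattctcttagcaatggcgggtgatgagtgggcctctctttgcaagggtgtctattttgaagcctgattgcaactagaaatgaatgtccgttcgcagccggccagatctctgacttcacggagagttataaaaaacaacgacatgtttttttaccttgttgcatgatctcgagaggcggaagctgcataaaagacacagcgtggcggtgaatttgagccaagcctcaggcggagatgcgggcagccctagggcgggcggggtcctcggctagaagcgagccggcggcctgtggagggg
Psme3, chr11:101315963-101316262, strand +: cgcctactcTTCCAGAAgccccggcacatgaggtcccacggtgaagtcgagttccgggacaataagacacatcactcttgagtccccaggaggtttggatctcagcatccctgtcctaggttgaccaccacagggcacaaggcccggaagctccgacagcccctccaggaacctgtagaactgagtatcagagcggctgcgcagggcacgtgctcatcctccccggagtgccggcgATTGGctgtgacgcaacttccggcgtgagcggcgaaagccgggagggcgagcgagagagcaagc

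Psmc6 carried TGACNNNGC, read as GCTAAGTCA on the shown strand, 227 bases before its start. Psme3 carried TTCNNGAA 241 bases before its start and a CCAAT box, on the other strand, 14 bases before it. Psma7 held only a CCAAT box, and the window of Psmd1 held no match. RefSeq windows were at hand for 30 of the 36 genes. TGACNNNGC stood in 6 of these 30, namely Psmb5, Psmb6, Psmc6, Psmd9, Psmd12 and Psme4, against 14% of all 27025 genes with a window. GAANNTTC stood in 1 (Psmb5) against 9.04%, TTCNNGAA in 2 (Psmd4 and Psme3) against 9.6%, and CCAAT in 12 against 41.1%. These are matches of letters and not sites of binding.

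Values are log2 signals after RMA, the authors' background correction, normalization and summary of probes, so that differences are logarithms of fold changes. The array medians lay between 7.03 and 7.12. The subunit probesets lay between percentiles 56.3 and 99.1 of mean signal, and levels of different probesets are not compared, since probes differ in how well they bind. The treatments could be seen in Hspa1b, the stress-induced HSP70 gene, which passed in each treatment against the control (log2 differences of 1.94 with Lipofectamine, 5.17 with heat shock and 4.0 with benzyl alcohol). The 6 pigment cell markers measured had group means of 9.51 to 13.21, while the epithelial (4 genes), fibroblast (5) and macrophage (5) markers had 3.35 to 7.33, 4.22 to 7.49 and 4.61 to 8.28. Most of these markers did not pass. The exceptions were Tyr and Sox10, lower with heat shock than in the control, Mitf, higher with benzyl alcohol than with Lipofectamine or heat shock, and Cd68, higher with benzyl alcohol than in each other group (5.31 ± 0.17 in the control and 6.21 ± 0.37 with benzyl alcohol, SD). Mitf with benzyl alcohol did not pass against the control (means of 11.27 and 10.97), and the Lipofectamine and heat shock means were 9.55 and 9.51. Its control arrays 1 and 3 (9.87 and 9.93) lay below arrays 2, 4 and 5 (11.74, 11.62 and 11.68). The part of these marker differences in the results below was not tested. In bulk RNA, fewer cells and less RNA per cell cannot be told apart.

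Some arrays stood apart, and results are given with and without them. The control arrays fall into 1 and 3 against 2, 4 and 5, a division known from earlier work on these data. Control array 2 had the lowest control signal for 22 of the 36 subunits and the highest for 0. Among the Lipofectamine arrays, array 2 had the highest signal for 32 of the 36 subunits and array 3 the lowest for 31. Benzyl alcohol array 2 had the lowest signal of its group for 29. The median deviation of the subunits from the control mean was 0.25, 0.43 and 0.14 in Lipofectamine arrays 1, 2 and 3, where the median over all 1941 probesets with a mean signal of 10 or more was -0.04, 0.04 and -0.14. In heat shock arrays 1 to 3 the subunits' median deviation was 0.10, 0.06 and 0.08, beside -0.03, -0.05 and -0.04 for those 1941 probesets. In benzyl alcohol arrays 1 to 3 it was 0.03, -0.15 and 0.06, beside 0.07, -0.03 and 0.05. In control arrays 2, 4 and 5 the subunits' median deviation was -0.13, -0.01 and -0.05. The medians of the Lipofectamine arrays for the subunits thus lay above every other array, control arrays 1 (0.10) and 3 (0.13) included, although array 3 did so narrowly.

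**Figure D1:**
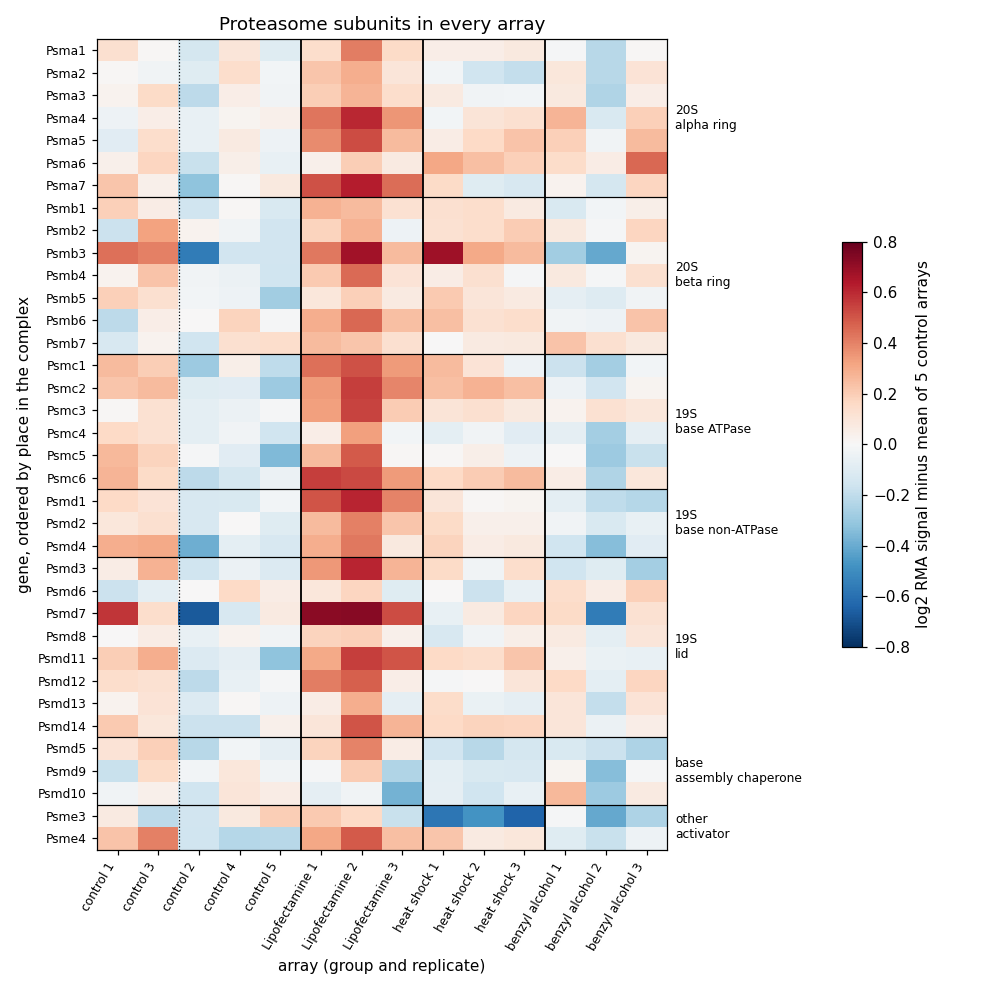
Log2 RMA signal of the 36 subunits (vertical, ordered by place in the complex) in all 14 arrays (horizontal), drawn as the difference from the mean of the 5 control arrays, red for higher and blue for lower. The Lipofectamine columns are red in nearly all rows, deepest in array 2, and control arrays 1 and 3 are redder than 2, 4 and 5 in the base.

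With Lipofectamine 6 of the 36 subunits rose against the control, 3 in the alpha ring and 3 in the base, and 30 did not pass. The median difference was 0.26 on the log2 scale, against -0.02 over all probesets and -0.04 over the 1941 bright ones. Above 0 were 34 of 36, where 45.1% of all probesets and 41.1% of the bright ones were. The median of the subunits was 0.15 against control arrays 1 and 3 alone, and these arrays were themselves above arrays 2, 4 and 5 by a median of 0.21. By limma with Benjamini-Hochberg adjustment over all 22626 probesets, those 6 rose and 0 fell, where 1.78% of all probesets rose and 3.1% fell. An unadjusted p under 0.05 was reached by 22 of the 36 and by 4248 of the 22626 probesets. In 12 subunits every Lipofectamine array was above every control array, which held for 3.69% of all probesets. By place in the complex, the 7 alpha subunits had a median of 0.23 with 3 rises, the 7 beta subunits 0.22 with 0, the 9 base subunits 0.36 with 3 and the 8 lid subunits 0.30 with 0. The 3 chaperones of base assembly had a median of -0.02 and no rise. Differences between these classes were not tested. Counts of members refer to the brightest probeset of a gene. Of the 33 other probesets of these genes 6 were also higher and 0 lower, namely those of Psma5, Psma7, Psmb1 and Psmd11 and a pair of Psme4.

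Psma4, Psma5 and Psma7 are subunits of the alpha ring, the gate of the core. Psma4 read 10.75, 10.73, 10.84, 10.81 and 10.83 in control arrays 1 to 5 and 11.22, 11.39 and 11.14 in Lipofectamine arrays 1 to 3. The control arrays were close together and every Lipofectamine array lay clear of them, with a rise of 0.46 ± 0.088 (SE, adjusted p = 0.0106 by limma). Psma7 read 11.38, 10.84, 11.20, 11.17 and 11.24 in the control arrays and 11.67, 11.79 and 11.61 in the Lipofectamine arrays. Control array 2 was low and widened the control group, but the groups did not overlap, and Psma7 rose by 0.52 (SE 0.119, adjusted p = 0.0252 by limma). A second Psma7 probeset rose by 0.67 (adjusted p = 0.00327 by limma). Psma5 read 11.03, 11.06, 11.26, 11.19 and 11.08 in the control and 11.50, 11.64 and 11.37 with Lipofectamine. All of its treated arrays were above the control range, and it rose by 0.38 (adjusted p = 0.0372 by limma). Its second probeset gave 0.46 (adjusted p = 0.0452), and another, with a mean signal of only 4.38, gave 0.16 and did not pass.

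None of the beta subunits passed in its brightest probeset, and a dim probeset of Psmb1 (mean signal 6.41) gave 0.39 and passed (adjusted p = 0.047 by limma). Psmb6 and Psmb7, which with Psmb5 carry the cutting sites of the standard core, differed by 0.33 (adjusted p = 0.0792) and 0.20 (adjusted p = 0.285), and Psmb5 by 0.12 (adjusted p = 0.653, all by limma). Psmb3, a structural beta subunit, had the largest difference of its ring, 0.45, beside a control SD of 0.42 (n = 5).

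In the 19S base, the ATPases Psmc3 and Psmc6 and the large scaffold subunit Psmd1 rose. Psmd1 read 10.79, 10.50, 10.74, 10.51 and 10.61 in the control arrays and 11.13, 11.24 and 11.03 in the Lipofectamine arrays. These groups did not overlap, although control arrays 1 and 3 were the highest controls, and Psmd1 rose by 0.51 ± 0.096 (SE, adjusted p = 0.0106 by limma). Psmc6 read 11.22, 10.74, 11.10, 10.81 and 10.90 in the control and 11.50, 11.48 and 11.29 with Lipofectamine. The lowest treated array was just above the highest control, and the rise was 0.47 (adjusted p = 0.0348 by limma). The other Psmc6 probesets, with mean signals of 8.25 and 6.04, differed by 0.03 and -0.04, so the rise of this ATPase was seen in 1 of 3 probesets. Psmc3 read 10.79, 10.70, 10.90, 10.73 and 10.77 in the control and 11.11, 11.32 and 10.98 with Lipofectamine. Lipofectamine array 3 was nearest to the control, still above all of it, and Psmc3 rose by 0.36 (adjusted p = 0.0444 by limma). Psmc1 and Psmc2, neighbouring ATPases, differed by 0.43 each without passing (adjusted p = 0.0758 and 0.0651).

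No lid subunit passed in its brightest probeset. Psmd7, the partner of the deubiquitinase Psmd14, had the largest difference of the 36, 0.66, but its control arrays ran from 9.24 to 10.48 (SD 0.45, n = 5) and the adjusted p was 0.0772. Psmd11, which clamps lid and core together, differed by 0.45 (adjusted p = 0.061), while 1 of its 5 dimmer probesets gave 0.75 and passed (adjusted p = 0.00319 by limma). The other 4 gave 0.34, 0.62, 0.20 and 0.17 and did not pass (adjusted p = 0.0577, 0.126, 0.24 and 0.47). Psmd14 itself differed by 0.29 and Psmd3 by 0.41 (adjusted p = 0.179 and 0.0647). Of the assembly chaperones Psmd5, Psmd9 and Psmd10, none passed. Psme4, an activator that caps the core, differed by 0.34 in its brightest probeset (adjusted p = 0.214) and by 0.41 and 0.76 in its other probesets, which both passed (adjusted p = 0.0392 and 0.00606 by limma).

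The count of rises depended on single arrays, while the median did not change sign. It was 0 without Lipofectamine array 1, 2 without Lipofectamine array 2, 10 without control array 1, 11 without control array 3, 3 without control array 2, 2 without control array 4, 3 without control array 5, and 3 without each of heat shock arrays 1, 2 and 3, which enter through the shared spread. Calls over the whole array moved too: 1.78% of all probesets rose in the fit with all arrays, 0.407% without Lipofectamine array 1, 0.729% without Lipofectamine array 2, 3.67% and 2.96% without control array 1 or 3, and 0.902% to 1.34% in the other fits named here. The median of the subunits stayed between 0.19 (without Lipofectamine array 2) and 0.33. Psma4 and Psmd1 lost their call only without Lipofectamine array 1, among the 11 arrays left out in turn. Without Lipofectamine array 3, Psma7 and Psmc6 lost their calls, where 1.19% of all probesets rose.

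**Figure D2:**
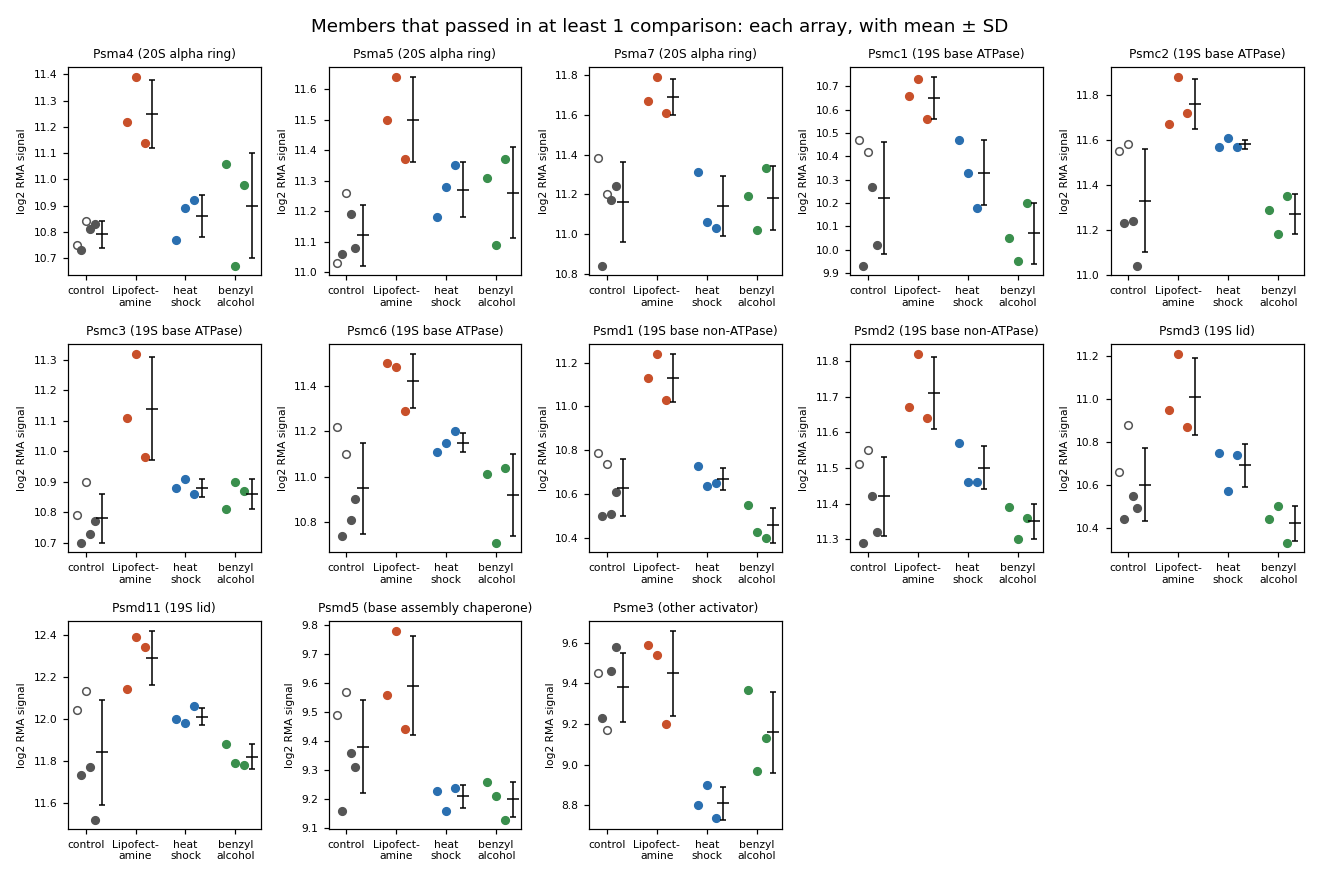
Log2 RMA signal of the 13 subunits that passed in at least 1 comparison, 1 panel a gene, with a point for each array and dashes and bars for mean ± SD (n = 5 control, n = 3 for each treatment); open circles are control arrays 1 and 3, and each panel has its own vertical scale that does not start at 0. Psma4 and Psmd1 show the Lipofectamine arrays above every other array, and Psme3 shows the heat shock arrays below every other array.

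With heat shock no subunit of the core, the base or the lid passed against the control in its brightest probeset. Of the 33 other probesets 2, both dim, were higher, 1 of Psmd7 (0.68, adjusted p = 0.0102, mean signal 6.84) and 1 of Psmb1 (0.43, adjusted p = 0.0294). The median difference of the 36 subunits was 0.07, against 0.03 over all probesets and -0.04 over the 1941 bright ones. Above 0 were 27 of 36, where 55.1% of all probesets and 42.3% of the bright ones were. By limma 0 subunits rose (background 1.05%) and 1 fell (background 4.91%). An unadjusted p under 0.05 was reached by 2 subunits and by 5158 of the 22626 probesets. Without overlap of the groups, 1 subunit, Psma6 of the alpha ring, was above the control (7.58% of all probesets were), and 1 was below it (10.2% were). The median was 0.09 for the core, 0.11 for the base and 0.05 for the lid. Psma6 differed by 0.24 and did not pass (adjusted p = 0.146 by limma).

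The gene that fell was Psme3, an activator known as REG gamma, which caps core particles in the nucleus without the need for ubiquitin. This single fall is a smaller share of the measured set than the 4.91% of all probesets that fell. It is therefore described for Psme3 alone and not as a result for the set. It read 9.45, 9.23, 9.17, 9.46 and 9.58 in the control arrays and 8.80, 8.90 and 8.74 in the heat shock arrays. All heat shock arrays lay below the lowest control, and the log2 difference of Psme3 was -0.57 ± 0.119 (SE), which passed (adjusted p = 0.0174 by limma). A second probeset of nearly the same brightness gave -0.23 and did not pass (adjusted p = 0.343), and another was dim, with a mean signal of 4.7. The call was lost without any 1 of the 3 heat shock arrays (count 0 each, with 0.875% to 1.34% of all probesets lower in these fits), with the highest adjusted p over all alternatives at 0.187. The 3′ minus 5′ signal of Gapdh was 0.01 to 0.13 in the heat shock arrays and -0.14 to -0.03 in the control. That of beta-actin was 0.39, 0.12 and 0.14 with heat shock, where only array 1 lay outside the control range of 0.06 to 0.15, and their part in this result was not tested. Psme4, the other activator, differed by 0.12 (adjusted p = 0.635).

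Set directly against heat shock, Lipofectamine gave higher mean signals in 32 of 36 subunits, where 39.5% of all probesets were higher. The median difference of the subunits was 0.20, against -0.05 over all probesets. By limma 4 were higher and 0 lower, where 4.42% of all probesets were higher and 1.3% lower, so that the share of 4 in 36 is to be read against a larger background than in the comparison with the control. In 21 subunits all Lipofectamine arrays lay above all heat shock arrays, which held for 15% of all probesets. The 4 were Psma4 (0.39, adjusted p = 0.0339), Psma7 (0.55, adjusted p = 0.0278), Psmd1 (0.46, adjusted p = 0.0239) and Psme3 (0.63, adjusted p = 0.0143). Of the 33 other probesets 2 were higher, 1 of Psma7 and 1 of Psme4. Heat shock arrays 1 to 3 read 10.77, 10.89 and 10.92 for Psma4, 11.31, 11.06 and 11.03 for Psma7 and 10.73, 10.64 and 10.65 for Psmd1. For Psma7 and Psmd1 these values lie inside the control range, and for Psma4 heat shock arrays 2 and 3 lie just above it. For Psme3 the heat shock arrays lie apart, and the Lipofectamine arrays (9.59, 9.54 and 9.20) lie at or near the control range. The count was 1 without heat shock array 1 or 2 and 0 without heat shock array 3 or without Lipofectamine array 1 or 2, where 1.52% to 2.19% of all probesets were higher. The comparisons with the control and this one share arrays and are not independent.

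**Figure D3:**
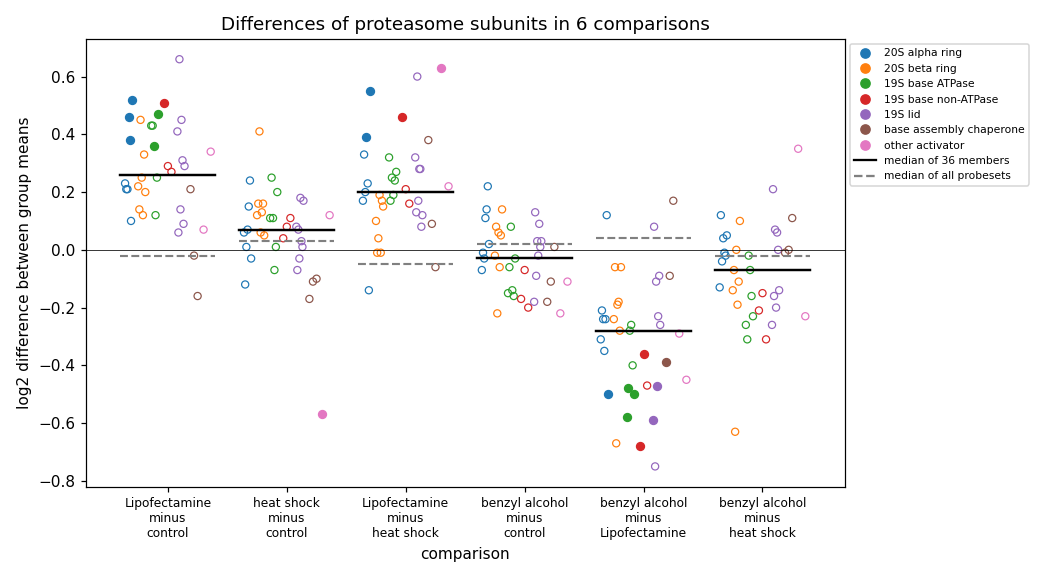
Log2 difference between group means (vertical) for each of the 36 subunits (points, coloured by place in the complex) in 6 comparisons (horizontal), filled where the adjusted p was under 0.05, with the median of the subunits as a black line and that of all probesets as a grey dashed line. The subunits' median lies at 0.26 for Lipofectamine minus control and at -0.28 for benzyl alcohol minus Lipofectamine, and near that of all probesets for heat shock and benzyl alcohol against the control.

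With benzyl alcohol no subunit passed against the control. The median was -0.03 against 0.02 over all probesets. By limma 0 rose and 0 fell, where 0.689% and 0.698% of all probesets did. Even an unadjusted p under 0.05 was reached by 0 subunits, and by 3024 of the 22626 probesets. No subunit had its benzyl alcohol arrays all above or all below the control (3.17% and 4.38% of all probesets). The 9 base subunits had a median of -0.14 and the 14 core subunits one of 0.03. Left-out arrays moved the median between -0.07 and 0.07.

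Against Lipofectamine, the benzyl alcohol means were lower in 33 of 36 subunits and in 9658 of the 22626 probesets. The median difference of the subunits was -0.28, where all probesets had a median of 0.04 and the bright ones 0.08. By limma 9 subunits were lower and 0 higher, where 5.22% of all probesets were lower and 6.71% higher. An unadjusted p under 0.05 was reached by 22 subunits and by 5718 of the 22626 probesets. Of the 33 other probesets 9 were also lower and 0 higher. In 22 all benzyl alcohol arrays lay below all Lipofectamine arrays, which held for 12.9% of all probesets. In the base 5 of 9 passed, all 9 had groups without overlap, and the median was -0.47, against -0.24 with 1 of 14 in the core and -0.24 with 2 of 8 in the lid. No test of that difference between classes was made.

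The base subunits that were lower were the ATPases Psmc1, Psmc2 and Psmc6 and the scaffolds Psmd1 and Psmd2, on which ubiquitin receptors and carriers dock. Psmd1 read 10.55, 10.43 and 10.40 in benzyl alcohol arrays 1 to 3, against 11.13, 11.24 and 11.03 with Lipofectamine. The values of arrays 2 and 3 were below every control array as well, and the difference was -0.68 (SE 0.104, adjusted p = 0.00129 by limma). Psmc1 read 10.47, 9.93, 10.42, 10.27 and 10.02 in the control, 10.66, 10.73 and 10.56 with Lipofectamine, and 10.05, 9.95 and 10.20 with benzyl alcohol. The benzyl alcohol arrays lay inside the control range and the Lipofectamine arrays above it, and the difference between them was -0.58 (SE 0.14, adjusted p = 0.0138 by limma). A dim second Psmc1 probeset (mean signal 5.09) gave 0.01. Psmc2 read 11.55, 11.23, 11.58, 11.24 and 11.04 in the control, 11.67, 11.88 and 11.72 with Lipofectamine, and 11.29, 11.18 and 11.35 with benzyl alcohol. Its benzyl alcohol arrays lay inside the control range and its Lipofectamine arrays above it, and the difference was -0.48 (adjusted p = 0.0247 by limma), with -0.36 in a second probeset that did not pass (adjusted p = 0.23).

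Psmc6 read 11.01, 10.71 and 11.04 with benzyl alcohol, a difference of -0.50 from Lipofectamine (adjusted p = 0.0224 by limma). Its other probesets gave -0.01 and -0.11, again without passing. Psmd2 read 11.51, 11.29, 11.55, 11.42 and 11.32 in the control, 11.67, 11.82 and 11.64 with Lipofectamine, and 11.39, 11.30 and 11.36 with benzyl alcohol. Here too the benzyl alcohol arrays lay inside the control range, and the difference was -0.36 (adjusted p = 0.0261 by limma).

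Outside the base, the alpha subunit Psma7, the lid subunits Psmd3 and Psmd11 and the chaperone Psmd5 were lower. Psma7 read 11.19, 11.02 and 11.33 with benzyl alcohol, a difference of -0.50 (adjusted p = 0.0224), and its second probeset gave -0.59 (adjusted p = 0.00422, both by limma). Psmd3, a lid scaffold, read 10.66, 10.44, 10.88, 10.55 and 10.49 in the control, 10.95, 11.21 and 10.87 with Lipofectamine, and 10.44, 10.50 and 10.33 with benzyl alcohol. Lipofectamine array 3 was just below control array 3, while both lay clear of the benzyl alcohol arrays, and the difference was -0.59 (SE 0.125, adjusted p = 0.00737 by limma).

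Psmd11 read 12.04, 11.73, 12.13, 11.77 and 11.52 in the control, 12.14, 12.39 and 12.34 with Lipofectamine, and 11.88, 11.79 and 11.78 with benzyl alcohol. Again only the Lipofectamine arrays of these groups left the control range. The difference was -0.47 (adjusted p = 0.0329), and 3 further probesets of Psmd11 passed with -0.49, -0.92 and -0.82 (adjusted p = 0.00652, 0.0008 and 0.0343, all by limma), while its 2 dimmest did not. Psmd5 read 9.49, 9.16, 9.57, 9.36 and 9.31 in the control, 9.56, 9.78 and 9.44 with Lipofectamine, and 9.26, 9.21 and 9.13 with benzyl alcohol. The Lipofectamine arrays overlapped the control, and benzyl alcohol arrays 1 and 2 lay in the lower part of its range and array 3 just below it, with a difference of -0.39 (adjusted p = 0.0405 by limma).

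Of these 9 calls, Psmd1 and Psmd3 held with each of the 14 arrays left out in turn. The count of lower subunits was 3 without Lipofectamine array 1, 3 without Lipofectamine array 2, 5 without benzyl alcohol array 1 and 3 without benzyl alcohol array 2, and lay between 6 and 13 without any other. In the first 4 of these fits 2.41% to 3.99% of all probesets were lower. Against heat shock, benzyl alcohol gave 0 calls in either direction among the brightest probesets, where 5.44% of all probesets were higher and 1.78% lower. The median was -0.07, against -0.02 over all probesets and 0.08 over the bright ones. An unadjusted p under 0.05 was reached by 3 subunits and by 4893 of the 22626 probesets. Means were lower in 25 of 36 subunits and in 12359 probesets. In 13 subunits all benzyl alcohol arrays lay below all heat shock arrays and in 2 above, as in 3291 and 3861 probesets. The median was -0.21 for the base, with 5 of 9 below without overlap, -0.03 for the core and -0.07 for the lid. Psmb3 had the largest difference of this comparison, -0.63, which did not pass. Dimmer probesets of Psmd11 (-0.48) and Psmd7 (-0.82) were lower (adjusted p = 0.0394 and 0.00551 by limma).

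Among untreated cells the subunits also differed between the sets of control arrays. The mean of control arrays 1 and 3 was above that of arrays 2, 4 and 5 in 30 of 36 subunits. It was so in 9360 of the 22626 probesets. The median difference was -0.04 for all probesets and 0.21 for the subunits. In 21 both arrays of the first set were above all 3 of the second, and in 1, Psmd6 of the lid, both were below. Over all probesets 17.7% were above and 21% below, and with sets of 2 and 3 arrays chosen from the data no test was made. By place, all 9 base subunits were above without overlap (median 0.35), as were 6 of 8 lid subunits, 4 of 7 beta subunits and 0 of 7 alpha subunits. Psmb3 had the widest gap (means of 11.50 and 10.79), followed by Psmd7 (10.26 and 9.67) and Psme4 (10.41 and 9.90). Psma4 had the same mean, 10.79, in both.

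The difference from Lipofectamine depended on which of these sets served as control. The median of the subunits was 0.35 over control arrays 2, 4 and 5 and 0.15 over arrays 1 and 3. Above 0 were 33 and 31 of 36, as were 9741 and 11252 of the 22626 probesets. Refitted with 1 set left out, limma called 20 rises without control arrays 1 and 3, where 8.1% of all probesets rose, and 1 rise without arrays 2, 4 and 5, where 1.55% did. As the sets were chosen from the data, counts of calls with 1 set left out are a description and no test. Psma4 differed by 0.46 from either set, Psma7 by 0.61 and 0.40, and Psmd1 by 0.60 and 0.37, while Psmb3 differed by 0.73 from one and 0.03 from the other. For heat shock the median turned from 0.15 to -0.06, with 6 and 0 rises (7.31% and 0.689% of all probesets rose) and the Psme3 call lost without arrays 2, 4 and 5. For benzyl alcohol it went from 0.06 to -0.13. With arrays 2, 4 and 5 left out, 3 of 36 subunits were lower with benzyl alcohol than in the control, near the 7.32% of all probesets that were. Against Lipofectamine itself, with the control entering only through the shared spread, the count lower with benzyl alcohol was 15 or 14 with the first or the second set left out, where 9.1% and 8.11% of all probesets were lower.

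**Figure D4:**
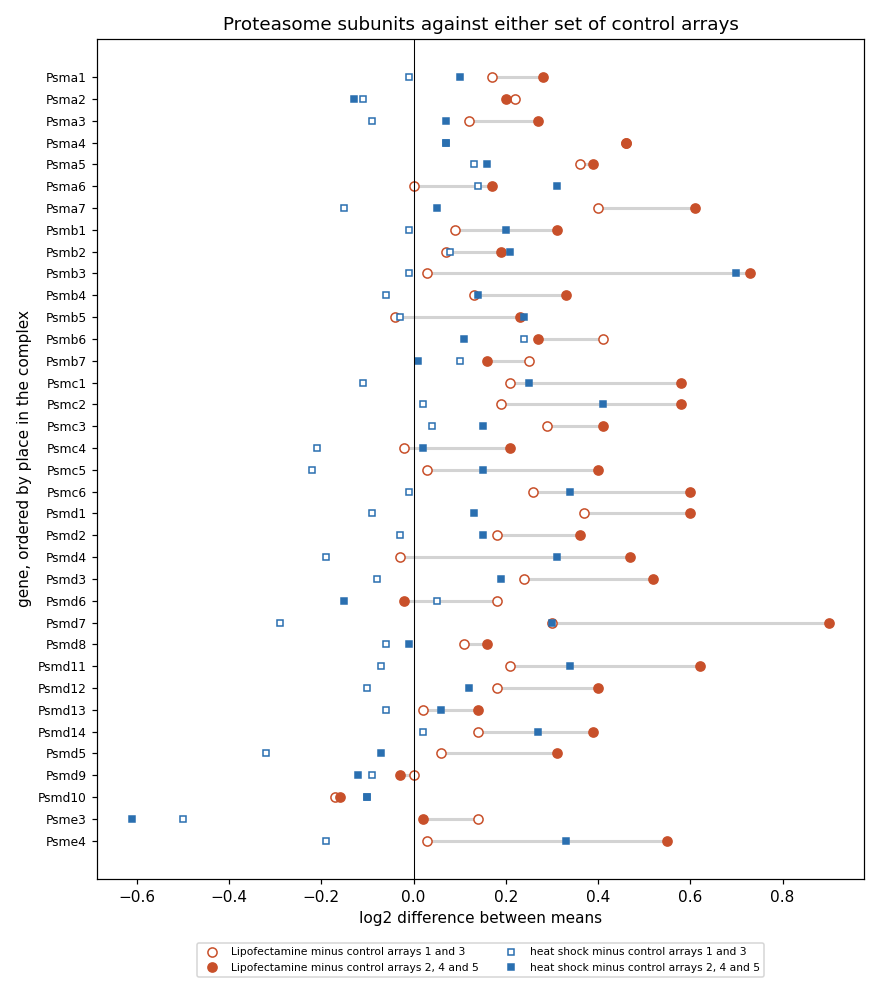
Log2 difference (horizontal) of the Lipofectamine mean (circles) and the heat shock mean (squares) from control arrays 1 and 3 (open) or 2, 4 and 5 (filled) for each of the 36 subunits (vertical, ordered by place in the complex). Filled and open circles lie together for Psma4 (0.46 and 0.46) and far apart for Psmb3 (0.73 and 0.03) and Psmd7 (0.90 and 0.30), and most open squares lie left of 0.

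Other genes of the pathway were read from lists written by hand, of which 32 of 45 genes had a probeset of their own. The 4 measured immunoproteasome genes (Psmb8, Psmb9 and Psmb10, which replace standard beta subunits in cells exposed to interferon, and Psme1, of an activator cap induced with them) did not pass in any of the 6 comparisons. Among 13 assembly factors and associated proteins, Txnl1, a thioredoxin-like protein bound to the 19S cap, rose with Lipofectamine by 0.48 (adjusted p = 0.0189). Psmg2 and Psmg3, chaperones that assemble the alpha ring, fell by 0.40 and 0.55 (adjusted p = 0.0428 and 0.0163), so that they went the other way from the alpha subunits. Psmg1 (-0.32), Psmg4 (-0.25) and Pomp (0.08) of the same list did not pass. Psmg3 read 9.43 to 9.87 in the control arrays, 8.96 to 9.17 in the Lipofectamine arrays and 9.48 to 9.81 in the heat shock arrays. Only the Lipofectamine arrays of these 3 groups were low, and the difference from heat shock was -0.60 (adjusted p = 0.015). Against Lipofectamine, 4 of the 13 were higher with benzyl alcohol, and those with the smallest p were Psmg3 (0.64), Psmg2 (0.52) and Uchl5 (0.75), a deubiquitinase of the cap. None of the 13 was lower (all by limma). Over all probesets 6.71% were higher and 5.22% lower in this comparison. For the calls in all pathway lists, 1.78% of all probesets rose and 3.1% fell with Lipofectamine against the control, and 1.05% rose with heat shock. Against heat shock, 4.42% were higher and 1.3% lower with Lipofectamine, and 1.78% were lower with benzyl alcohol. Genes of the pathway lists were read from the brightest probeset and were not followed with arrays left out.

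Of 5 ubiquitin carriers, Ubqln2, a shuttle that brings ubiquitinated proteins to the base, rose by 1.11 with Lipofectamine (adjusted p = 0.00761). It read 7.92, 6.97, 7.73, 6.92 and 7.33 in the control and 8.31, 8.60 and 8.55 with Lipofectamine, where control arrays 1 and 3 were again the highest. It was lower with benzyl alcohol than with Lipofectamine (-0.97), as were Rad23b (-0.53), another shuttle, and Sqstm1 (-1.07), the p62 receptor for autophagy. Of all probesets 5.22% were lower there. Of 6 genes of the NRF1 pathway and the segregase VCP, the VCP cofactor Ufd1 rose with Lipofectamine by 0.53 (adjusted p = 0.0169) and was 0.46 above heat shock (adjusted p = 0.0476). It differed by -0.84 between benzyl alcohol and Lipofectamine, beside -0.89 for its partner Nploc4 and -0.82 for Vcp (all passing by limma). In that comparison 4 of 6 were lower and 0 higher, where 5.22% and 6.71% of all probesets were. Ngly1, which removes glycans from NRF1, was lower with benzyl alcohol than with heat shock (-0.56, adjusted p = 0.0289). Nfe2l1, the gene of NRF1, passed in none of the comparisons and is named for its role, after its values were seen. Its signals were 10.18 and 10.49 in control arrays 1 and 3 and 8.98, 8.92 and 8.91 in arrays 2, 4 and 5, so that the sets were 1.4 apart. Of 4 zinc finger partners of the proteasome, Zfand2a, induced by heat and arsenite, rose by 1.82 with heat shock (adjusted p = 0.00482), with values of 10.46, 10.47 and 11.15 against 8.25 to 9.70 in the control. Control arrays 1 and 3 (9.44 and 9.70) were its highest controls, and the sets of control arrays were 1.15 apart.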

How the data were processed

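RNA of 14 samples had been labelled and hybridised to Affymetrix mouse arrays by the authors, who read them with GCOS 1.2. What they deposited are log2 signals from RMA. The version of RMA and which arrays were processed together are not given in the sources used here. Probesets were named from the platform annotation: 20380 carry 1 symbol, 691 several and 1555 none. The 64 Affymetrix control probesets were left out, and 22626 were tested.

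Arrays of the control, heat shock and Lipofectamine groups (11) entered 1 fit with limma 3.58.1 in R 4.3.3, without covariates (5.51 prior degrees of freedom). Comparisons with benzyl alcohol used all 14 arrays in 4 groups. Adjustment of p (Benjamini-Hochberg) ran over all probesets tested, with 0.05 as the threshold. Values in every array are given for the 13 subunits that passed in any of the 6 comparisons, and from each pathway list for up to 3 genes that passed, by smallest p. Hspa1b served as a check of treatment. The members and gene lists were chosen with earlier results of these data known. Replicate numbers were not taken to pair the samples: of 18 same-numbered pairs of arrays, 3 deviated together with a correlation over 0.1. Arrays numbered 2 had the strongest correlations, 0.44 for control and benzyl alcohol, -0.46 for control and Lipofectamine and -0.56 for Lipofectamine and benzyl alcohol. Alternatives covered the samples in the fit, the variance model, normalization, filters, the choice of probeset, the threshold, a replicate block and each array left out. The medians over probesets with a mean signal of 10 or more were added after the data had been seen. The code was tested on simulated data first. The number of arrays limits the precision, and detection calls were not used here.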

Additional observations from a re-analysis of the deposited data

How the results depend on the processing

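The median of the subunits kept its sign in each alternative for Lipofectamine minus control (0.15 to 0.35), Lipofectamine minus heat shock and both other comparisons of treatments, while counts of calls moved. With Lipofectamine against the control, 6 rises became 2 with only the 2 groups compared, 26 with array weights (whose estimation stopped short of its tolerance), 2 with an unmoderated variance, 12 with renewed quantile normalization, 2 at the threshold of the methods, 0 with a fold of at least 1.5, 20 without control arrays 1 and 3, 1 without arrays 2, 4 and 5, and 0 to 11 with 1 array left out (median 0.19 to 0.33). The sign of Psmc6 turned (-0.04) when probesets with names ending in _x_at, _s_at or _a_at were removed. Another, dimmer probeset (mean signal 6.04) then stood for the gene. With heat shock against the control, 0 rises became 4 with array weights, 1 with the mean of all probesets and 6 without control arrays 1 and 3, and the 1 fall became 0 with an unmoderated variance, the mean of all probesets, a fold of at least 1.5 or without control arrays 2, 4 and 5, and 0 to 1 with 1 array left out. Its median of 0.07 became 0.13 with renewed quantile normalization, 0.15 and -0.06 without either set of control arrays, and 0.03 to 0.11 with 1 array left out. Lipofectamine against heat shock went from 4 higher to 24 (and 1 lower) with array weights, 2 with an unmoderated variance, 2 at the threshold of the methods, 1 with a fold of at least 1.5, and 0 to 5 with 1 array left out (median 0.14 to 0.25). Benzyl alcohol against the control gave 3 lower without control arrays 2, 4 and 5 (median -0.07 to 0.07 with 1 array left out). Benzyl alcohol against Lipofectamine went from 9 lower to 22 (and 1 higher) with array weights, 5 with an unmoderated variance, 18 with renewed quantile normalization, 1 at the threshold of the methods, 2 with a fold of at least 1.5, 15 and 14 without either set of control arrays, and 3 to 13 with 1 array left out (median -0.35 to -0.22). Against heat shock it gave 1 lower with only the 2 groups compared, 2 (and 1 higher) with array weights, 2 and 1 without either set of control arrays, and a median of -0.13 to -0.02 with 1 array left out. Of all probesets 5.06% were lower there with only the 2 groups and 6.6% (12.4% higher) with array weights. Without control arrays 1 and 3 the share lower was 5.37%, and without 2, 4 and 5 it was 4.76%. Calls over all probesets moved as well. In the order named, the share that rose with Lipofectamine was 1.78% with all arrays, 0.791% with only the 2 groups, 15.3% with array weights, 0.544% with an unmoderated variance, 2.49% after quantile normalization, 0.933% at the threshold of the methods and 1.07% with the fold. Array weights also gave 9.13% higher with heat shock, 21.4% higher with Lipofectamine than with heat shock and 17.2% lower with benzyl alcohol than with Lipofectamine. For the last, 3.05% were lower with an unmoderated variance, 6.4% after quantile normalization, 1.75% at the threshold of the methods and 3.24% with the fold. For Lipofectamine against heat shock, 1.48% were higher with an unmoderated variance, 2.29% at the threshold of the methods and 3.16% with the fold. The causes of these shifts were not tested. With the replicate number as a block, which the arrays did not bear out as a pairing, 0 subunits rose with Lipofectamine, 0 fell with heat shock (median 0.03) and 1 was higher with Lipofectamine than with heat shock (0.354%, 0.623% and 3.73% of all probesets). Of 58 pairs of a named subunit and a comparison that did not pass, 21 changed sign in at least 1 alternative and 23 passed in at least 1, 0 of them with another sign. RMA signals of few arrays limit what can be seen: most differences here are under 0.5 on the log2 scale, beside a median control SD of 0.14.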
